A study of Mus musculus with 3 samples.

Results

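Layer 5 of the mouse cerebral cortex was examined as 100 spots in each of 3 brain sections, 300 spots of the 10239 that carried at least 3000 unique molecular identifiers (UMIs, counted RNA molecules) and of the 14976 on the 3 arrays. The spots were chosen by the measured values themselves: within a section, each spot was scored by the sum of ln(1 + counts per 10000 UMIs) over Fezf2, Deptor, Rbp4, Hsd11b1 and Etv1, and the 100 highest scores were taken. The sections came from C57BL/6J mouse brain, fresh-frozen and cut at 10 µm, and were labelled Y-Ctrl (treatment Control), O-Ctrl (treatment Control) and O-Ex (treatment Exercise). The title places the study in brain aging and its design text asks how exercise alters aging signatures across the brain. The labels do not spell out the letters Y and O. Neither the ages nor the form of exercise is stated in the labels. Each group was 1 section, so no difference between groups has a replicate check, and no test was made. A Visium spot is a small area of tissue that can hold several cells of different types, and spot positions were not used here, so "layer 5 spots" means spots rich in the 5 selecting genes. In summed spots, fewer cells of a type and less RNA per cell cannot be told apart.

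Layer 5 is the main output layer of the cortex. Its extratelencephalic neurons send large axons to the brainstem and spinal cord, its intratelencephalic neurons connect cortical areas and striatum, and its near-projecting neurons stay local. Fezf2 encodes the transcription factor that specifies the extratelencephalic fate, Etv1 a transcription factor of layer 5 pyramidal neurons, Rbp4 a retinol carrier whose gene drives a widely used layer 5 Cre line, Deptor an inhibitor of mTOR, and Hsd11b1 the enzyme that regenerates active glucocorticoid. Neurons switch on immediate early genes such as Egr1, Arc and Fos within minutes of activity. Interferons switch on a separate set of genes in glia, endothelium and neurons, among them guanylate-binding proteins and immunity-related GTPases.

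The comparisons below turn on these last 2 gene sets, and the promoters of 4 of their members show the DNA elements by which each set is known to be controlled. The RefSeq table (build GRCm38.p6) held promoters of 23 of the 28 interferon-response genes and 18 of the 22 immediate early genes listed. Each sequence below is the 250 bases before the annotated start, 5′ to 3′ on the gene's strand. Capitals mark matches on either strand. These are the interferon-stimulated response element core (GAAANNGAAA) in Gbp2, Igtp and Irgm1, and the gamma-activated site (TTCNNNGAA) in Igtp only. In Dusp1 they mark the cyclic AMP response element (TGACGTCA). In Irgm1 a pair of overlapping cores shares letters.
Gbp2, chr3:142620413-142620662, plus strand: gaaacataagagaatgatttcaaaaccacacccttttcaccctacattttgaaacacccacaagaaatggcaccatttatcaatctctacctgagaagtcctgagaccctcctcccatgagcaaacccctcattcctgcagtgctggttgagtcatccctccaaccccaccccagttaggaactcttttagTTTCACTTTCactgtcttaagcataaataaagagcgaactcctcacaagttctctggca
Igtp, chr11:58199306-58199555, plus strand: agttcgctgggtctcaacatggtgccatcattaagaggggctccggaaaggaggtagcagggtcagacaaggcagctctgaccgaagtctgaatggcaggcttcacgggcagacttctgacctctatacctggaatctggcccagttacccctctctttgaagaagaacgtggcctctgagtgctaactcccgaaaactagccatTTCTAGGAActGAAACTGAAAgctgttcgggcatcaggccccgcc
Irgm1, chr11:48871421-48871670, minus strand: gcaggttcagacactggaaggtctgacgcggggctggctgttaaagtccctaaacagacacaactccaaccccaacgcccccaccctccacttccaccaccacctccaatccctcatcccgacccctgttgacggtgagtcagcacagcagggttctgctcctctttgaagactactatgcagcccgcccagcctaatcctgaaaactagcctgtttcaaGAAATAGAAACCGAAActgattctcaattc
Dusp1, chr17:26508473-26508722, minus strand: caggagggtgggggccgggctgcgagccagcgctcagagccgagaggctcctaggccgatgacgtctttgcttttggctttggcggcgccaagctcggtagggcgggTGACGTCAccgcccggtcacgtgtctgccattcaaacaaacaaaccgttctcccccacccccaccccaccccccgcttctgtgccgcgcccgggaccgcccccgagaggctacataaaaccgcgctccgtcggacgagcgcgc
The response element core was present in 14 of the 23 interferon-response genes, 60.9%, and in 3.46% of all 27025 genes in the table. The gamma-activated site was present in 7 of the 23, 30.4%, against 8.13% of all genes. Among the 18 immediate early genes, the cyclic AMP response element was present in 2, Dusp1 and Btg2, or 11.1%, against 1.77% of all genes, and the CArG box bound by serum response factor in 1, Egr2, or 5.56%, against 1.62%. The response element core was as frequent among them, in 2 of 18, Egr4 and Fosl2, or 11.1%. These are letter matches in a window of 250 bases, searched on both strands, and not measured binding.

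The selection captured a thin slice of each section. The lowest score taken and the highest score left out were 2.8954 and 2.8893 in Y-Ctrl, 2.9026 and 2.8909 in O-Ctrl, and 2.8303 and 2.8185 in O-Ex. In the order Y-Ctrl, O-Ctrl, O-Ex, used for every triplet of values below, the 100 spots summed to 2846278, 1993925 and 1989095 UMIs, with medians of 28571, 19596 and 21593 UMIs a spot. Shallow spots were more frequent in O-Ex, where 24 of the 100 held under 6000 UMIs; the O-Ctrl set had 2 such spots and the Y-Ctrl set 4. Of those 24 spots, 20 carried only 2 of the 5 selecting genes. All 4992 array barcodes were common to the 3 sections, as the arrays share 1 barcode set; 11, 17 and 6 layer 5 spots had the same barcode in Y-Ctrl and O-Ctrl, Y-Ctrl and O-Ex, and O-Ctrl and O-Ex.

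Of the selecting genes, Etv1 carried the most counts. In counts per 1000000 UMIs of the selected spots (CPM), Etv1 stood at 260.0, 330.5 and 290.6, and over all spots of at least 3000 UMIs at 83.6, 91.8 and 91.1. Fezf2 stood at 115, 112 and 111 CPM, Rbp4 at 97.3, 98.3 and 91.0 CPM, Hsd11b1 at 72.7, 83.8 and 61.3 CPM, and Deptor at 41.8, 28.1 and 38.2 CPM. All 5 genes had UMIs in 34, 12 and 21 of the 100 spots. These values describe the choice and support nothing further, and the 5 genes were left out of all totals and comparisons below.

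Genes outside the rule matched the label in part. The extratelencephalic list (Ldb2, Crym, Pou3f1, Bcl6 and others) summed to 385, 354 and 401 CPM in the layer 5 spots, against 220.5, 226 and 280.3 CPM over all spots. The intratelencephalic list summed to 184, 184 and 179 CPM against 94.7 to 97.5 CPM. The near-projecting list, led by the zinc-finger gene Tshz2, summed to 58.0, 85.3 and 63.4 CPM against 28.6, 27.4 and 26.7 CPM. All 3 lists were higher in the chosen spots than over all spots in every section, but not all set layer 5 apart from other layers. The intratelencephalic list was higher still in layer 4 spots, at 198, 190.5 and 211 CPM, and the extratelencephalic list in layer 6 spots, at 293, 285 and 318 CPM, was also above the all-spot level. The near-projecting list was at most 26.6 CPM in the other layers' spots. The layer 6 list (Foxp2, Syt6, Tle4 and others) was lower, at 99.1, 93.3 and 114 CPM against 152, 153 and 161 CPM. The layer 4 list stood at 74.5, 101 and 88.5 CPM against 89.3, 85.3 and 80.8 CPM, above the all-spot level in O-Ctrl and O-Ex. The layer 2/3 list lay close to the level of all spots, at 457, 364 and 362 CPM against 431, 387 and 374 CPM. Few spots were shared with sets of 100 chosen in the same way from layer 2/3, layer 4 and layer 6 genes: 0, 3 and 1 in Y-Ctrl, 0, 6 and 0 in O-Ctrl, and 1, 6 and 1 in O-Ex. Since the spots were chosen by expression, these differences carry no test.

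**Figure D1:**
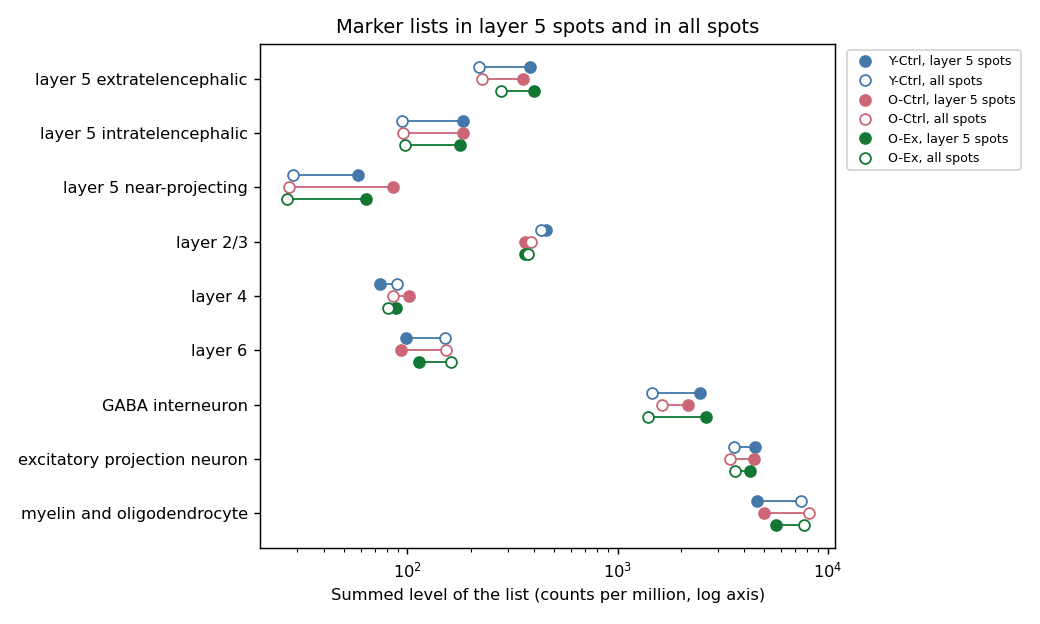
Summed level of 9 marker lists in CPM (log axis) in the 100 layer 5 spots (filled) and all spots of at least 3000 UMIs (open) of each section, the selecting genes left out. The 3 layer 5 lists and the interneuron list lie to the right of the all-spot level in each section, and the layer 6 and myelin lists to the left.

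Among the leading single genes was Parm1, an intratelencephalic marker, at 109, 106 and 97.6 CPM. Kcnab3, a potassium channel beta subunit, stood at 81.3 to 95.6 CPM, and Cplx1, which encodes the release protein complexin 1, at 915, 905 and 863 CPM. Interneuron genes were also abundant. Pvalb, the parvalbumin gene of fast-spiking interneurons, stood at 509, 688 and 708 CPM against 256, 310 and 246 CPM over all spots. Markers of regions outside the cortex were present as well. Of the 100 spots, 22, 28 and 29 were in the top 10% of their section for at least 1 such list. This was less frequent than among all spots, of which only 1550 of 3409, 1611 of 3498 and 1554 of 3332 were in none. The choroid plexus list summed to 260.1, 1084 and 633 CPM, below the 4066, 4957 and 12740 CPM of all spots. The meningeal fibroblast list summed to 817, 1613 and 2366 CPM against 1331, 1838 and 2008 CPM, above the all-spot level in O-Ex only. The part of these markers in the results below was not tested, except where values without spots high in them are given.

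Between sections, most genes differed little. A mean of 50 CPM or more was reached by 3172 genes. On a scale of CPM + 5, O-Ctrl exceeded Y-Ctrl by 1.5-fold or more in 20 of them, 0.631%, and fell short by as much in 11, 0.347%. For O-Ex over O-Ctrl, 11 were higher, 0.347%, and 10 lower, 0.315%. The comparisons share the O-Ctrl section. The exact 95% Poisson intervals of the 2 sections did not overlap for any of these genes, but such intervals cover counting error only. The median log2 ratio over all 3172 genes was -0.02 and 0.01. Without the filter on CPM, 16934 genes had a count, of which 1.99% were at least 1.5-fold higher and 1.25% lower in O-Ctrl than in Y-Ctrl, and 2.73% higher and 1.36% lower in O-Ex than in O-Ctrl. By direction alone, 1741 of the 3172 genes were lower in O-Ctrl than in Y-Ctrl, and 1665 were higher in O-Ex than in O-Ctrl; without the filter, 8357 of the 16934 were higher in O-Ctrl and 9464 higher in O-Ex. These shares and counts are the background for the lists below.

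Immediate early genes were lower in O-Ctrl than in Y-Ctrl. All 6 listed genes that passed the filter of 50 CPM were lower, 4 of them at least 1.5-fold, with a median log2 ratio of -0.77 that ranged from -0.81 to -0.40 over 20 alternative settings. Of all 22 listed genes, 19 were lower and 10 at least 1.5-fold lower, and 3 were higher, 2 of them at least 1.5-fold. Egr1, which encodes a zinc-finger transcription factor, stood at 177 (161.7 to 193.0), 88.8 (76.2 to 103) and 170.5 CPM (153 to 190), the brackets being Poisson intervals. Only O-Ctrl was low, and its interval lay apart from both others. Egr3 followed at 75.9, 48.7 and 67.9 CPM.

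Other members stayed low in O-Ex. Arc, the activity-regulated synaptic protein that forms capsids (chr15:74669083-74672570, minus strand in mm10), stood at 91.4 (80.6 to 103), 43.2 (34.5 to 53.3) and 25.6 CPM (19.1 to 33.7), highest in Y-Ctrl and lowest in O-Ex with no overlap of intervals. Junb, an AP-1 subunit, stood at 59.4, 41.6 and 24.1 CPM, and Dusp1, a phosphatase that switches off MAP kinases, at 64.0, 33.1 and 23.6 CPM. Nr4a1, an orphan nuclear receptor, was at 84.4 CPM in Y-Ctrl and at 33.1 and 34.7 CPM in O-Ctrl and O-Ex. Fos was at 32.3, 13.5 and 19.1 CPM. Ier5 differed little, at 120, 116 and 106 CPM. For O-Ex over O-Ctrl the list was mixed: 4 of the 6 genes that passed the filter were higher and 2 lower, with a median log2 ratio of 0.18 (range -0.003 to 0.37). Of all 22 listed genes, 16 were higher and 6 lower, with 2 at least 1.5-fold apart in each direction. Among all genes without the filter, 9464 of 16934 were higher.

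**Figure D2:**
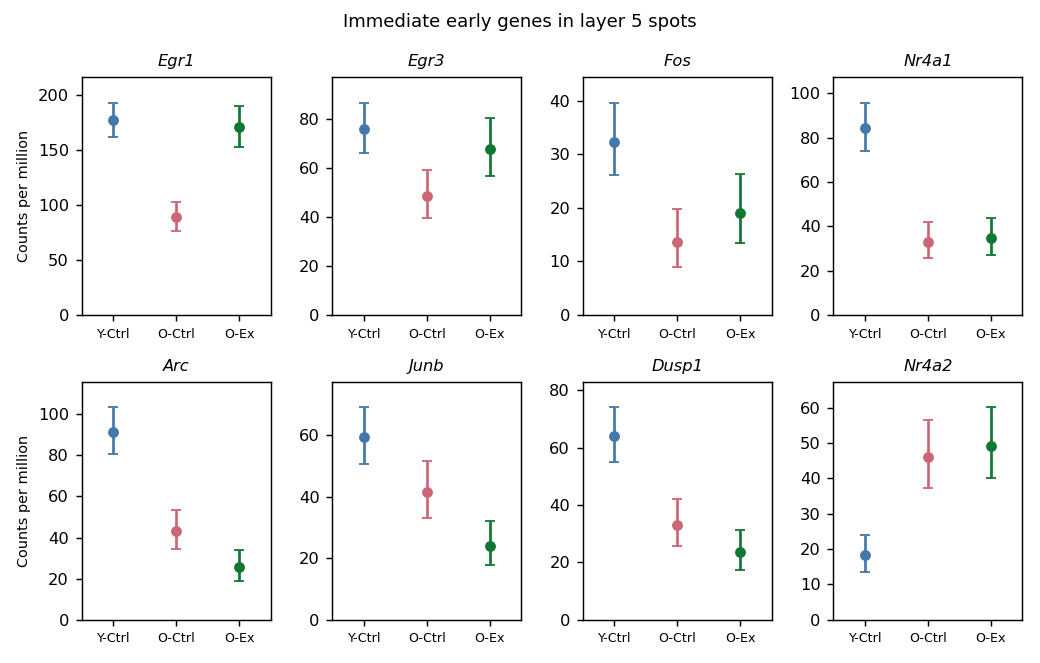
CPM of 8 immediate early genes in the summed layer 5 spots of each section, with exact 95% Poisson intervals (counting error only), each panel starting at 0. Egr1 is low in O-Ctrl alone, at 88.8, Arc is highest in Y-Ctrl and lowest in O-Ex, at 25.6, and Nr4a2 is lowest in Y-Ctrl.

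The same differences were present outside layer 5. The log2 ratio of Egr1 for O-Ctrl over Y-Ctrl was -0.95 in layer 5 spots, -0.44 in layer 2/3 spots, -0.63 in layer 4 spots, -0.80 in layer 6 spots and -0.57 over all spots. That of Arc was -1.001, -1.002, -1.37, -1.79 and -1.04. For O-Ex over O-Ctrl, Egr1 gave 0.904 in layer 5 spots and 0.41 to 0.43 in the other layers. Over the alternatives, Egr1 for O-Ctrl over Y-Ctrl ranged from -1.07 to -0.32, the latter with spots thinned to 3000 UMIs before scoring, and for O-Ex over O-Ctrl from 0.62 to 1.03. Arc ranged from -1.13 to -0.75 and from -0.88 to -0.355. Limited to spots of at least 6000 UMIs, the Egr1 ratios were -0.94 and 0.89 and the Arc ratios -0.99 and -0.76, and without spots high in other regions' markers -0.77 and 0.80, and -1.12 and -0.55. With 1 section a group, whether layer 5 differs from the other layers in these ratios was not tested.

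Nr4a2, a nuclear receptor known from the claustrum and deep layers as well as an immediate early gene, was one of the 3 listed genes that were higher in O-Ctrl than in Y-Ctrl. The others were Fosl2, an AP-1 subunit, at 9.84, 20.1 and 18.1 CPM, and Klf2, lowest in Y-Ctrl at 10.9 CPM and highest in O-Ex at 14.6 CPM. Nr4a2 stood at 18.3, 46.2 and 49.3 CPM, and its log2 ratio for O-Ctrl over Y-Ctrl was 1.14 in layer 5 spots, -0.27 in layer 2/3 spots, 0.39 in layer 4 spots, -0.25 in layer 6 spots and -0.04 over all spots. Lxn, a carboxypeptidase inhibitor expressed in claustrum and lateral cortex (chr3:67457998-67463926, minus strand in mm10), had the highest ratio of the genes named by rule, at 41.1 CPM (34.0 to 49.3), 141.0 CPM (125.0 to 158.5) and 65.4 CPM (54.6 to 77.7). Over all spots Lxn was level, at 64.5, 68.9 and 65.5 CPM. In O-Ctrl, 10 spots held 60.9% of the Lxn counts, and 8 of those 10 were also among the 10 spots with most Nr4a2 counts, against 1 of 10 in Y-Ctrl and 6 of 10 in O-Ex. Neurod6, a transcription factor of pyramidal neurons, stood at 62.6, 102 and 61.9 CPM, but its direction reversed under other choices of spots. Without spots high in other regions' markers the Lxn ratio for O-Ctrl over Y-Ctrl was 1.07 in place of 1.66. Which parts of the cortex the chosen spots cover and the section they come from cannot be told apart here.

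Most interferon-response genes were higher in O-Ctrl than in either other section. Of the 28 listed genes, 25 were higher in O-Ctrl than in Y-Ctrl and 13 at least 1.5-fold, and 21 were lower in O-Ex than in O-Ctrl and 12 at least 1.5-fold lower. Only Ifi27 had a mean of 50 CPM, so these counts are without the filter. The list therefore has no range over the alternative settings. The background over all 16934 genes was 8357 higher in O-Ctrl than in Y-Ctrl, with 1.99% at least 1.5-fold higher. For O-Ex over O-Ctrl it was 6791 lower, with 1.36% at least 1.5-fold lower. The log2 ratio of Ifi27 was 0.417 for O-Ctrl over Y-Ctrl and 0.046 for O-Ex over O-Ctrl, so this gene was not lower in O-Ex. The summed list stood at 170, 369 and 232 CPM. Gbp2, a guanylate-binding protein that attacks vacuoles of pathogens, had 7, 48 and 16 counts, or 2.46, 24.1 and 8.05 CPM. AW112010, an interferon-induced transcript, stood at 6.33, 26.6 and 5.53 CPM. Igtp, an immunity-related GTPase whose promoter above holds both elements, stood at 7.38, 21.6 and 11.1 CPM, and Irgm1, a regulatory GTPase, at 10.2, 20.6 and 12.6 CPM.

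The antiviral membrane proteins had the same order: Bst2 (tetherin) stood at 5.98, 20.6 and 8.55 CPM and Ifitm3 at 18.6, 45.7 and 31.7 CPM. Psmb9, an immunoproteasome subunit, had 3, 18 and 5 counts. Not all members took part: Isg15, a ubiquitin-like modifier, had 9, 8 and 8 counts, and Ifit3 stood at 7.03, 8.03 and 7.55 CPM. Gbp2 had the same order over all spots, at 3.42, 32.1 and 7.40 CPM. The summed list was also highest in O-Ctrl outside layer 5, but O-Ex lay at varied distances below it. It stood at 115, 237 and 158 CPM in layer 2/3 spots and at 124.5, 325 and 201 CPM in layer 6 spots. In layer 4 spots it stood at 128, 318 and 291 CPM, and over all spots at 209, 410 and 330 CPM. Ly6a, an endothelial surface protein, followed the same order at 48.9 (41.1 to 57.7), 129 (113.7 to 145.7) and 81.0 CPM (69.0 to 94.5), and its relative Ly6c1 stood at 52.0, 100.4 and 82.0 CPM.

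Glial and complement lists were uneven. Without the filter, reactive astrocyte genes and 6 of 9 complement genes were higher in O-Ctrl than in Y-Ctrl, and 7 of 12 homeostatic microglia genes were lower. Of all 16934 genes, 8357 were higher and 8010 lower. The homeostatic microglia list summed to 268 (249.2 to 287.6), 244 (223.2 to 267.1) and 303 CPM, with overlapping Poisson intervals in Y-Ctrl and O-Ctrl. C4b, the complement component, stood at 6.68, 34.1 and 36.7 CPM, and Gfap, the astrocyte intermediate filament, at 21.4, 60.7 and 63.4 CPM. All 10 reactive astrocyte genes were higher in O-Ctrl than in Y-Ctrl and 6 of them at least 1.5-fold, without the filter on CPM; for O-Ex over O-Ctrl 5 were higher and 5 lower, 2 of these by at least 1.5-fold. The 3 C1q genes, made by microglia, were all higher in O-Ctrl, with C1qa at 50.6, 83.8 and 87.0 CPM. Their median log2 ratio was 0.54 (range 0.13 to 0.71), and 0.26 with spots of at least 10000 UMIs. In layer 2/3 spots the 3 measured complement genes were all lower in O-Ctrl than in Y-Ctrl, a median of -0.13. In layer 4 and layer 6 spots all 3 were higher, with medians of 0.64 and 0.72. All 7 measured disease-associated microglia genes were higher in O-Ctrl than in Y-Ctrl, with a median log2 ratio of 0.31 (range 0.14 to 0.39). Among them Apoe stood at 1021, 1415 and 1416 CPM. Without the filter, 10 of the 14 listed genes with a count were higher and 4 lower. All 11 MHC class I genes were higher in O-Ctrl than in Y-Ctrl, 3 at least 1.5-fold, and for O-Ex over O-Ctrl 7 were lower, 2 at least 1.5-fold, and 4 higher, with sums of 317, 443 and 415.5 CPM. The genes H2-K1 and H2-D1 were among the 4 and stood at 29.9, 35.6 and 53.8 CPM and at 46.8, 58.2 and 74.5 CPM. The MHC class II genes Cd74, H2-Ab1 and H2-Aa had 2, 2 and 2 counts in Y-Ctrl; in O-Ctrl they had 16, 11 and 4, and in O-Ex 39, 21 and 21. Most of the Cd74 counts in O-Ex, 97.4%, came from 10 spots.

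**Figure D3:**
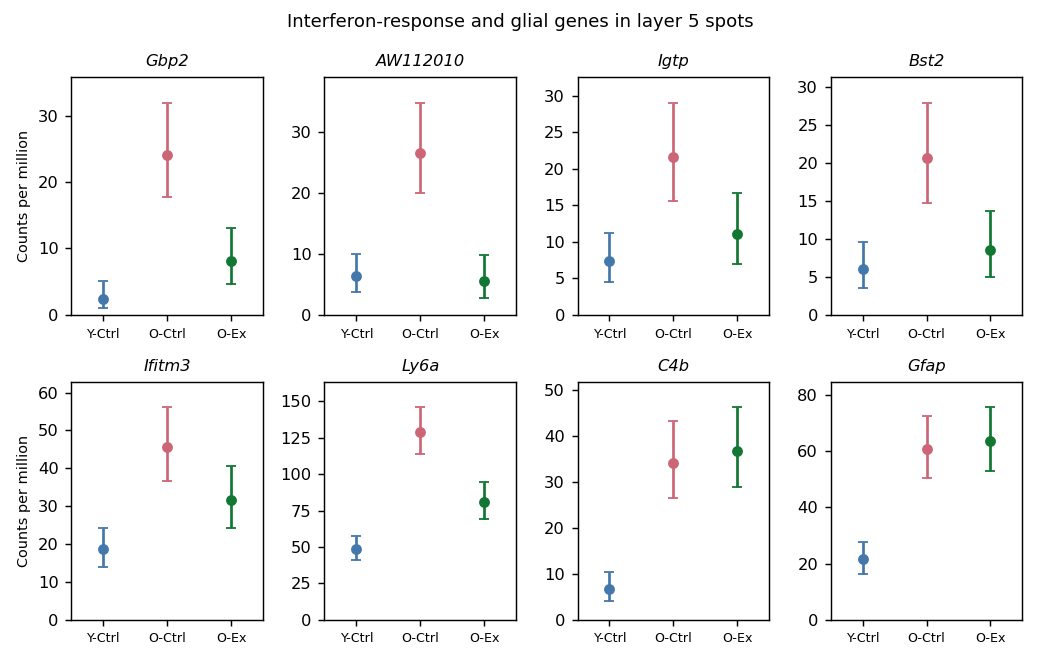
CPM of 8 interferon-response, endothelial and glial genes in the summed layer 5 spots of each section, with exact 95% Poisson intervals, each panel starting at 0. Gbp2, AW112010, Igtp, Bst2, Ifitm3 and Ly6a peak in O-Ctrl, whereas C4b and Gfap stand as high in O-Ex, at 36.7 and 63.4, as in O-Ctrl.

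Neuronal gene lists showed small differences. The 14 large axon and cytoskeleton genes had median log2 ratios of 0.00 for O-Ctrl over Y-Ctrl and 0.02 for O-Ex over O-Ctrl, and the 22 measured voltage-gated channel genes -0.04 and 0.09, with no member 1.5-fold apart. Of 22 measured calcium and calmodulin genes, 16 were lower in O-Ctrl, with a median of -0.11 (range -0.16 to -0.001). Among them Pcp4, a calmodulin regulator, stood at 1151, 728 and 752 CPM, a log2 ratio of -0.66 that ranged from -0.88 to -0.04 with the choice of spots. The peptide genes of interneurons were uneven: Sst stood at 988, 659 and 869 CPM and Npy at 320, 208 and 255 CPM, and 10 spots held 67.9%, 63.8% and 69.1% of the Sst counts. All 7 measured interneuron genes were higher in O-Ex than in O-Ctrl, a median of 0.35, but this list reversed with the choice of spots in both comparisons.

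Receptor and release genes were close to level. The 7 measured glutamate receptor genes had median log2 ratios of 0.06 and 0.09, and the 20 synaptic vesicle and release genes -0.02 and 0.06. Of 8 measured GABA receptor genes, 7 were higher in O-Ex than in O-Ctrl, a median of 0.14 (range 0.002 to 0.21), and none was 1.5-fold apart. Among genes of other cells, all 4 measured endothelial genes were higher in O-Ctrl than in Y-Ctrl, a median of 0.52 (range 0.11 to 0.56), and 12 of 14 measured lysosome genes, a median of 0.15. Without the filter, 11 of the 15 listed endothelial genes were higher and 4 lower. Only 2, Ly6a and Ly6c1, were at least 1.5-fold higher. In layer 2/3 spots 2 of the 4 measured were higher and 2 lower, and in layer 4 and layer 6 spots all 4 were higher. The myelin and oligodendrocyte list summed to 4588, 4980 and 5688 CPM, and its median changed sign with the choice of spots.

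Metabolic lists differed by small steps. All 8 measured cholesterol synthesis genes were higher in O-Ctrl than in Y-Ctrl, with a median log2 ratio of 0.15 (range 0.13 to 0.29), among them Sqle, squalene epoxidase, at 39.4, 60.2 and 61.4 CPM. All 5 measured neurotrophic and exercise-linked genes were also higher, a median of 0.25 (range 0.06 to 0.34). Without the filter, 10 of the 14 listed were higher and 4 lower. For O-Ex over O-Ctrl, 3 of the 5 were higher and 2 lower, a median of 0.06 (range -0.09 to 0.16). Of the 14 without the filter, 6 were higher and 8 lower in O-Ex. Bdnf, the brain-derived neurotrophic factor gene, was below the filter, at 26.0, 21.1 and 23.1 CPM. The 12 measured mitochondrially encoded genes had medians of 0.03 and -0.04.

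Among the genes named by rule for O-Ex over O-Ctrl, Eef1a2, the elongation factor of neurons and muscle (chr2:181147653-181157014, minus strand in mm10), had the highest ratio, at 203 (186.6 to 220.1), 141.5 (125.5 to 159.0) and 312 CPM (288 to 337). Its log2 ratio was 1.11 in layer 5 spots and 0.99 to 1.08 in the other layers, and 1.07 in layer 5 spots of at least 6000 UMIs. All 16 measured chaperone and stress genes were higher in O-Ex, none of them 1.5-fold, with a median log2 ratio of 0.13 (range 0.08 to 0.21). Hspa5, the endoplasmic reticulum chaperone BiP, stood at 144, 142.5 and 199 CPM, and Pdia6, a disulfide isomerase, at 67.5, 67.8 and 95.6 CPM. In contrast, 24 of 30 nuclear respiratory chain genes were lower in O-Ex, a median of -0.08 (range -0.21 to -0.07). Both medians had the same sign outside layer 5. Over all spots the chaperone median was 0.23 and the respiratory chain median -0.11. In layer 2/3, layer 4 and layer 6 spots the chaperone medians were 0.14, 0.22 and 0.12. The respiratory chain medians there were -0.175, -0.094 and -0.084.

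RNAs of the neuronal noncoding list, which includes the small RNA Bc1, were higher in O-Ex than in O-Ctrl. All 8 listed RNAs with a count were higher, and 3 at least 1.5-fold, without the filter. The summed list stood at 7901, 6617 and 7941 CPM, so by this sum O-Ctrl was low and O-Ex close to Y-Ctrl. Snhg11, a neuronal host transcript, stood at 215.5, 219.8 and 348 CPM, Meg3, an imprinted RNA, at 250.3, 262 and 383 CPM, and Neat1, the paraspeckle scaffold, at 21.8, 35.1 and 58.9 CPM. The ratio of Snhg11 was 0.65 in layer 5 spots and 0.78 over all spots. Homer1, a postsynaptic scaffold, was at 104, 95.3 and 145 CPM. Lower in O-Ex were Sgk1, a kinase induced by glucocorticoid, at 94.2, 90.3 and 55.3 CPM, and Bex1 at 140, 153 and 95.1 CPM.

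Genes of blood and the brain's fluid spaces also differed. All 4 measured haemoglobin genes exceeded their O-Ctrl level in O-Ex by 1.5-fold or more, with a median log2 ratio of 1.08 (range 0.72 to 1.55, the lowest without spots high in other regions' markers). Hbb-bs stood at 583, 489 and 1043 CPM, and 10 spots held 79.0%, 63.3% and 69.8% of its counts. The same gene stood at 591, 550 and 1008 CPM over all spots. Ttr, the transthyretin gene of choroid plexus, stood at 249, 1062 and 619 CPM, and in O-Ctrl 10 spots held 87.2% of its counts, 1147 of them in a single spot.

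**Figure D4:**
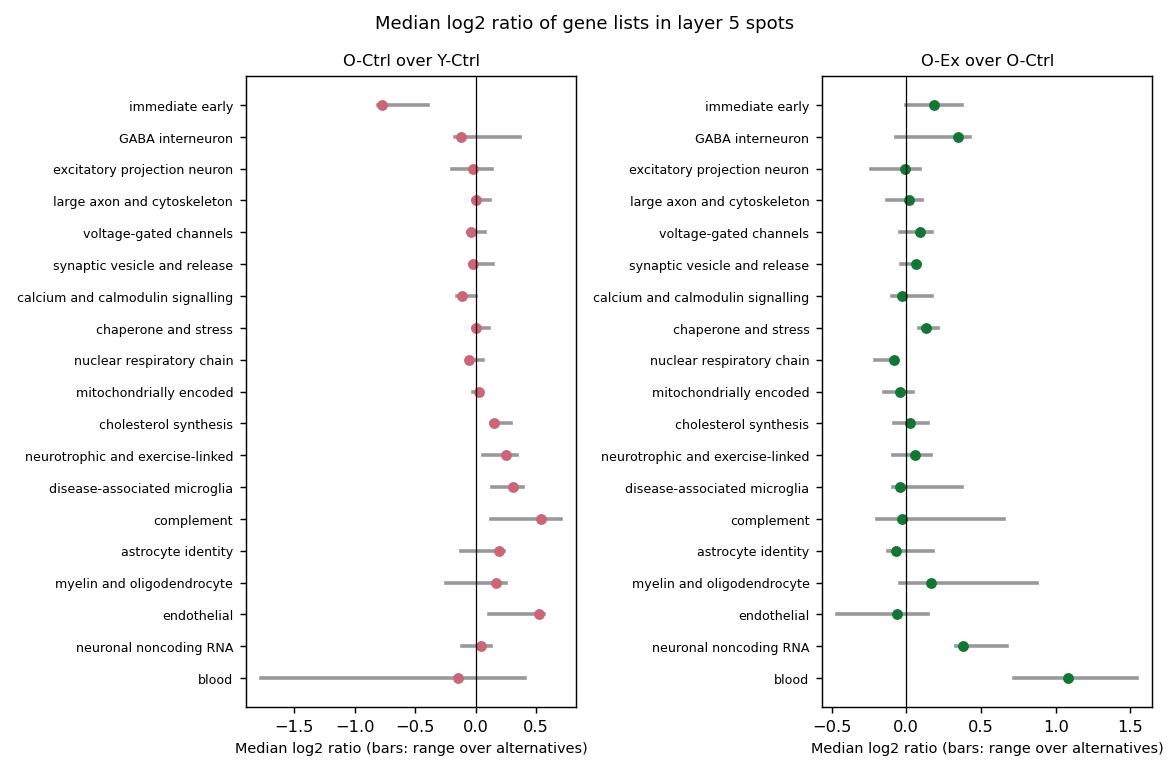
Median log2 ratio of 19 gene lists in layer 5 spots for O-Ctrl over Y-Ctrl (left) and O-Ex over O-Ctrl (right), with grey bars for the range over the alternative settings. The immediate early list lies at -0.77 on the left and the blood list at 1.08 on the right, while most neuronal lists lie near 0.

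**Figure D5:**
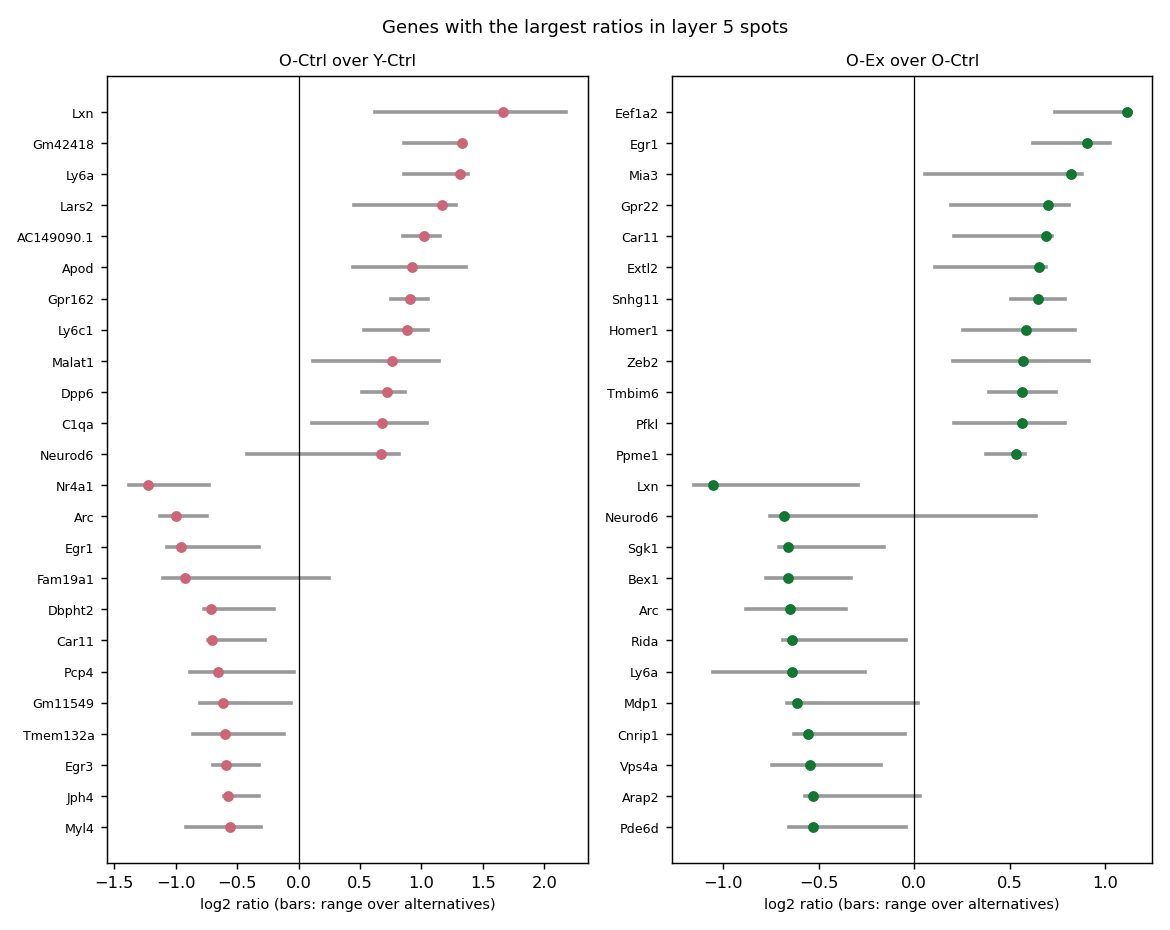
Log2 ratios of the 24 genes named by rule in each comparison, 12 higher and 12 lower, with grey bars for the range over the alternative settings. Lxn, at 1.66 on the left, and Eef1a2, at 1.11 on the right, lead, and bars cross 0 for Neurod6 on both sides, Fam19a1 on the left, and Mdp1 and Arap2 on the right.

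Some of the genes named by rule need care. Gm42418, at 593, 1501 and 1742 CPM, Lars2, at 46.8, 111 and 111 CPM, and AC149090.1, at 68.5, 144 and 155 CPM, were higher in O-Ctrl and O-Ex than in Y-Ctrl. Gm42418 is known to overlap ribosomal RNA sequence, so reads of other transcripts may be counted there. Malat1, a nuclear RNA, stood at 70.3, 122 and 133 CPM. Apod, a lipid carrier of glia and meninges, stood at 199, 383 and 422 CPM, and Dpp6, a potassium channel partner, at 51.0, 87.3 and 83.0 CPM. Car11, a carbonic anhydrase-related protein, was low in O-Ctrl alone, at 104, 61.7 and 103 CPM. Gpr162, an orphan receptor, stood at 51.3, 100.4 and 74.5 CPM, and Tmem132a, a transmembrane protein gene, at 125.5, 81.3 and 106 CPM. Jph4, the junctophilin that couples neuronal surface and endoplasmic reticulum membranes, stood at 83.0, 54.2 and 58.4 CPM, and Myl4, a myosin light chain gene, at 93.9, 62.2 and 47.3 CPM. Higher in O-Ex were Mia3, which exports large cargo from the endoplasmic reticulum, at 57.3, 44.2 and 82.0 CPM, and the orphan receptor gene Gpr22, at 42.5, 41.2 and 69.9 CPM. Among the alternatives the lowest log2 ratio of Mia3 was 0.057, against 0.82 in the chosen spots.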

How the data were processed

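3 Visium sections, 1 a group, were read as deposited UMI counts per gene and spot (31053 genes), which per the file headers came from Space Ranger 2.0.0, on mm10 per the submitters' processing notes; no label records other steps. The members and gene lists were chosen with earlier results of these data known. For each section the counts of its 100 spots were added up and divided by the sum without the 5 selecting genes (CPM). Ratios are log2 of CPM + 5, and exact 95% Poisson intervals cover counting error only. With 1 section a group no test was made. Genes named by rule were the 12 highest and 12 lowest ratios of each comparison with a mean of at least 50 CPM and the same direction with 50 and 200 spots, leaving out markers of other layers and regions, blood and sex; members of the 50 gene lists may also be named. The ratio was also run on simulated Poisson counts of the summed genes. These held no selection of spots and no variation between spots or sections, so they cover counting error only. 21 alternatives were run. Python 3.11.15, numpy 2.4.6 and scipy 1.17.1 were used. No doublet caller was run. Some results are not reported here.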

Additional observations from a re-analysis of the deposited data

How the results depend on the processing

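No paired analysis was possible because each group held 1 section. The 4 counts of genes at least 1.5-fold apart (20 higher and 11 lower for O-Ctrl over Y-Ctrl, 11 higher and 10 lower for O-Ex over O-Ctrl) moved with the spots and thresholds used, and the values follow in that order. They were 42, 27, 35 and 17 with 50 spots and 15, 7, 10 and 4 with 200 spots; 6, 2, 4 and 1 at 2-fold; 68, 42, 73 and 29 at a mean of 20 CPM; 337, 212, 463 and 230 without the filter; 14, 6, 9 and 3 with a pseudocount of 20 CPM; 31, 16, 53 and 16 with spots weighted equally; and 29, 17, 19 and 11 without mitochondrial genes and Bc1 in the totals. They were 23, 16, 22 and 10 with a minimum of 1000 UMIs, and 17, 14, 13 and 6 with a minimum of 10000 UMIs, a setting chosen after seeing the data. They were 16, 15, 53 and 14 with spots thinned to 3000 UMIs before scoring, 10, 12, 43 and 4 with spots scored on the 3 other layer 5 lists, and 16, 9, 10 and 2 without spots high in other regions' markers. Leaving 1 gene out of the score gave 27, 27, 57 and 9 without Fezf2, 27, 10, 12 and 6 without Deptor, 18, 17, 39 and 9 without Rbp4, 21, 10, 26 and 6 without Hsd11b1, and 29, 11, 23 and 5 without Etv1. The causes were not tested.

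Some medians and ratios changed sign. For O-Ctrl over Y-Ctrl, the interneuron median of -0.12 became 0.14 with 50 spots, 0.29 with 200, 0.15 at 10000 UMIs, 0.36 with thinned spots, 0.23 with the other layer 5 lists, 0.10 without other-region spots, and 0.006, 0.089, 0.24 and 0.28 without Fezf2, Rbp4, Hsd11b1 and Etv1. The myelin median of 0.17 became -0.14 with 50 spots, -0.076 at 10000 UMIs, -0.24 with thinned spots, and -0.24, -0.13 and -0.13 without Fezf2, Rbp4 and Hsd11b1. The extratelencephalic median of -0.18 became 0.13 with thinned spots and 0.049 with the other lists, and the blood median of -0.15 became 0.40 and 0.083 without Rbp4 and Hsd11b1. With thinned spots the astrocyte median of 0.19 became -0.12, the lysosome median of 0.15 became -0.031 and the Fam19a1 ratio of -0.92 became 0.25. The Neurod6 ratio of 0.67 became -0.42 with the other lists and -0.044 without Etv1. For O-Ex over O-Ctrl, the interneuron median of 0.35 became -0.071 with thinned spots and -0.028 with the other lists, which also turned the amygdala and piriform median of -0.17 to 0.26, the myelin median of 0.17 to -0.041 and the Mdp1 ratio of -0.61 to 0.022. The glucocorticoid median of -0.16 became 0.045 with thinned spots, the immediate early median of 0.18 became -0.003 without Hsd11b1, and the Neurod6 ratio of -0.68 became 0.15 with thinned spots, 0.64 with the other lists and 0.021 without Etv1. List medians were taken over 3 or more measured members. No alternative replaces replicate sections, and genes with few counts, such as Cd74 or Psmb9, are limited by depth.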
